A study of Mus musculus with 45 samples.

Results

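The nuclear receptors PPAR, RXR, PXR and CAR and the PGC-1 coactivators were followed through liver, kidney and brain of mice on a high-cholesterol diet. The set held 10 genes, chosen by name: Ppara, Pparg and Ppard (the PPARs), Rxra, Rxrb and Rxrg (the RXRs), Nr1i2 (PXR), Nr1i3 (CAR), and Ppargc1a and Ppargc1b (PGC-1α and PGC-1β). All 10 were measured, with 1 row each among the 22080 genes of the deposited expression table, and none was removed by a filter. The animals were male C57BL/6 mice, 7 weeks of age, with 8 mice assigned to each of 5 diets and tissues taken on day 43. Control mice received the AIN-93 diet and HCD mice the diet with 0.5% cholesterol. The other groups received the HCD together with 1% of a standardized Ganoderma lucidum extract, Gl-1 (HCD+Gl-1) or Gl-2 (HCD+Gl-2, from mushrooms grown on substrate with 10 mM acetylsalicylic acid), or with 0.03 g of the cholesterol synthesis inhibitor simvastatin per 100 g (HCD+Sim). Each of the 15 tissue and diet groups had 3 Affymetrix arrays of total RNA, named pools A, B and C, for 45 arrays in all.

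By the study's methods pools A and B were made from different mice and pool C mixed them, so each group's 3 arrays come from 2 sets of animals and p-values measure only the spread between these arrays, which may be partly technical. Array medians lay between 6.76 and 6.92 on the log2 scale, and arrays of a group correlated at 0.985 to 0.997 over all genes. A free-text note in the labels names brain for every sample, whereas titles, sources and tissue fields name 3 tissues, and the markers followed the latter: 10 of 10 hepatocyte markers were highest in liver, 9 of 10 tubule markers in kidney and 10 of 10 neuronal markers in brain. Pancreas acinar markers averaged 7.00 and 7.60 (log2) on the liver HCD+Sim arrays A and B but 5.69 to 5.95 on the other 13 liver arrays. Skeletal muscle markers averaged 7.57 and 7.92 on those 2 arrays, 6.86 to 7.08 in Control liver and 6.26 to 6.63 on the other liver arrays.

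PPARs, PXR and CAR are ligand-activated transcription factors that bind DNA as heterodimers with an RXR. PPARα, activated by fatty acids, drives fatty acid oxidation in liver and kidney, PPARγ drives lipid storage, and PXR and CAR sense bile acids, drugs and other foreign compounds and induce enzymes of their metabolism. PGC-1α and PGC-1β do not bind DNA themselves but raise the activity of PPARs and other receptors at genes of mitochondrial metabolism.

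The heterodimers recognize repeats of the hexamer AGGTCA, so the promoters of genes on which the results below turn were searched for it. RefSeq windows of 300 bases around annotated starts (GRCm38.p6) were found for 9 of the 10 genes, 14 windows in all. AGGTCA, or TGACCT on the other strand, stood in 4 of these 14 windows (28.6%), in 22 of 65 windows of the PXR and CAR target list (33.8%), in 14 of 52 of the PPARα target list (26.9%), in 3 of 26 of the PPARγ target list (11.5%) and in 16.3% of all 32851 windows. Among the other lists described below it stood in 4 of 17 windows of RXR partners (23.5%), 8 of 36 of PGC-1 partners and targets (22.2%) and 1 of 16 of coregulators (6.25%). Printed here, with the plus-strand letters that match in capitals, are both Pparg windows with a match, the window of Cyp2b9 (the listed target with the largest change) and that of Fabp1.
Pparg, chr6:115360894-115361193: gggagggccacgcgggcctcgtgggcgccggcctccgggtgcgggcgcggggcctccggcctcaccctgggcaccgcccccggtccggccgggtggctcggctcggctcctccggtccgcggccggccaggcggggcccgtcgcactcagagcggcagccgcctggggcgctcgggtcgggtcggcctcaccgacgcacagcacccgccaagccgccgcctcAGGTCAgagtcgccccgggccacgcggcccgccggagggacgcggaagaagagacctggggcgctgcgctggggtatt
Pparg, chr6:115362099-115362398: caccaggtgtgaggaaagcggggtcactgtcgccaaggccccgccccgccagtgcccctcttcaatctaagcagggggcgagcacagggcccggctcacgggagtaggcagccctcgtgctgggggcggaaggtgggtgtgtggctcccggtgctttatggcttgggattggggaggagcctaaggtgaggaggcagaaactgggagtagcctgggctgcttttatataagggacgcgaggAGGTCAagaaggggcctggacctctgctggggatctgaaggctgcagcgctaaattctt
Cyp2b9, chr7:26173159-26173458: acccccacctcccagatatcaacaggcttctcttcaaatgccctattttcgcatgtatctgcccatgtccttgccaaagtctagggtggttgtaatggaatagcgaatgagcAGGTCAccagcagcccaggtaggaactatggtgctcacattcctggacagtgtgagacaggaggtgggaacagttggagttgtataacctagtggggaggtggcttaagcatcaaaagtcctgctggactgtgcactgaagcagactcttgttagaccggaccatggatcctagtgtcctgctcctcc
Fabp1, chr6:71199629-71199928: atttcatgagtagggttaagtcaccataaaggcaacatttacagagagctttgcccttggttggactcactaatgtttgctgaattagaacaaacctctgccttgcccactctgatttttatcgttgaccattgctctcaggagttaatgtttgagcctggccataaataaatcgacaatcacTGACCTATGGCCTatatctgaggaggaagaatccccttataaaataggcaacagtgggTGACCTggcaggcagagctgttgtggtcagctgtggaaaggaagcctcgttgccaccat
The longer run in the Fabp1 window fits AGGNCANAGGNCA, a loose form of the direct repeat with 1 base between the hexamers, on the other strand. Of the 43 PPARα targets with a window, out of 56, Fabp1 alone held that loose repeat. This was 1 of 52 windows (1.92%), beside 0.381% of all windows, and no window of the 10 genes or the other lists held it. With both hexamers exact, that repeat stood in no window of the 10 genes or of any list (0.0396% of all windows). A loose repeat with 4 bases between the hexamers stood in 0 of 65 PXR and CAR target windows. Among the lists only the window of Esrra, a PGC-1 partner or target, held it (0.253% of all windows). The list shares given above are for single hexamers. Sites farther from the start and repeats with other spacings were not searched. With repeats this rare among all windows, 0 matches in a list says little. The third Pparg window and the windows of Nr1i3, Nr1i2 and Ppara held no AGGTCA. A match of letters is a description and not evidence of binding, and the table's 1 probe set for Pparg does not separate its starts.

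In Control mice most of the 10 genes differed in level between tissues. Comparing the Control groups, 8 of 10 passed the test between liver and kidney (limma, Benjamini-Hochberg adjusted p of at most 0.05, the rule for "called" throughout), where 48.4% of all genes did. Between liver and brain 7 were called (70% of all genes), and between kidney and brain 6 were called (59.1% of all genes). With shares this high among all genes, the counts are not particular to these receptors.

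CAR had the largest difference between liver and the other tissues among the 10. Nr1i3 lay at 10.27, 10.27 and 10.05 (log2) in Control liver, at 5.48, 5.85 and 5.54 in kidney and at 5.44, 5.56 and 5.19 in brain. Liver stood apart from both other tissues, 23.9-fold above kidney (log2 difference 4.58 ± 0.12 SE, adjusted p = 4.58e-30) and 28-fold above brain in the deposited values. The table carries no detection calls, and the low levels are like those of markers foreign to the tissue (neuronal markers in kidney at 5.65 to 5.86, pancreas markers in brain at 5.42 to 5.70), so these folds may understate the difference. Its partner in foreign compound sensing, Nr1i2, was 6.05-fold higher in liver than in kidney (log2 difference 2.60, adjusted p = 8.51e-24) and 1.62-fold higher in kidney than in brain (adjusted p = 1.32e-07). In Control brain Nr1i2 lay at 5.92 to 6.00, between the pancreas markers and the tubule markers there (6.08 to 6.39). The fold from kidney to brain may also be understated.

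Ppara lay at 10.59, 10.57 and 10.66 in Control liver, 9.52, 9.51 and 9.48 in kidney and 6.29, 6.21 and 6.26 in brain. The order was liver, kidney, brain with no overlap, the steps being 2.15-fold (adjusted p = 1.07e-10) and 9.53-fold (adjusted p = 1.89e-25). At these 2 steps 56.4% and 64.4% of all genes had no overlap. Brain Ppara lay within the range of tubule markers there (6.08 to 6.39, with 1 of the 10 highest in brain), so the second step may be understated. Rxra followed the same order, 3.17-fold from liver to kidney and 3.31-fold from kidney to brain (adjusted p = 3.74e-23 and 5.55e-24). Ppargc1a had a different order, highest in kidney and lowest in liver. It was 4.41-fold lower in liver than in kidney (log2 difference -2.14, adjusted p = 1.29e-23) and 1.45-fold higher in kidney than in brain (adjusted p = 6.9e-07).

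Of the remaining genes, Rxrg was 2.35-fold lower in kidney than in liver and 2.05-fold lower than in brain (adjusted p = 2.29e-06 and 2.68e-05), with liver and brain not separated (adjusted p = 0.377). Kidney Rxrg lay at 5.18 to 5.66 in Control, near markers foreign to kidney (pituitary at 5.16 to 5.37, neuronal at 5.65 to 5.86). Both folds may therefore be understated. Ppard was lower in liver than in kidney and brain by 1.3-fold and 1.28-fold (adjusted p = 0.00024 and 0.000291), with kidney and brain not separated (log2 difference 0.02 ± 0.09 SE). Pparg in Control liver was 1.37-fold above kidney (adjusted p = 6.35e-05) and not separated from brain (log2 difference 0.13, adjusted p = 0.216). Rxrb was 1.15-fold higher in liver than in brain (adjusted p = 0.0142), and Ppargc1b was called in none of the 3 comparisons, with log2 differences of -0.13 to 0.07.

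**Figure D1:**
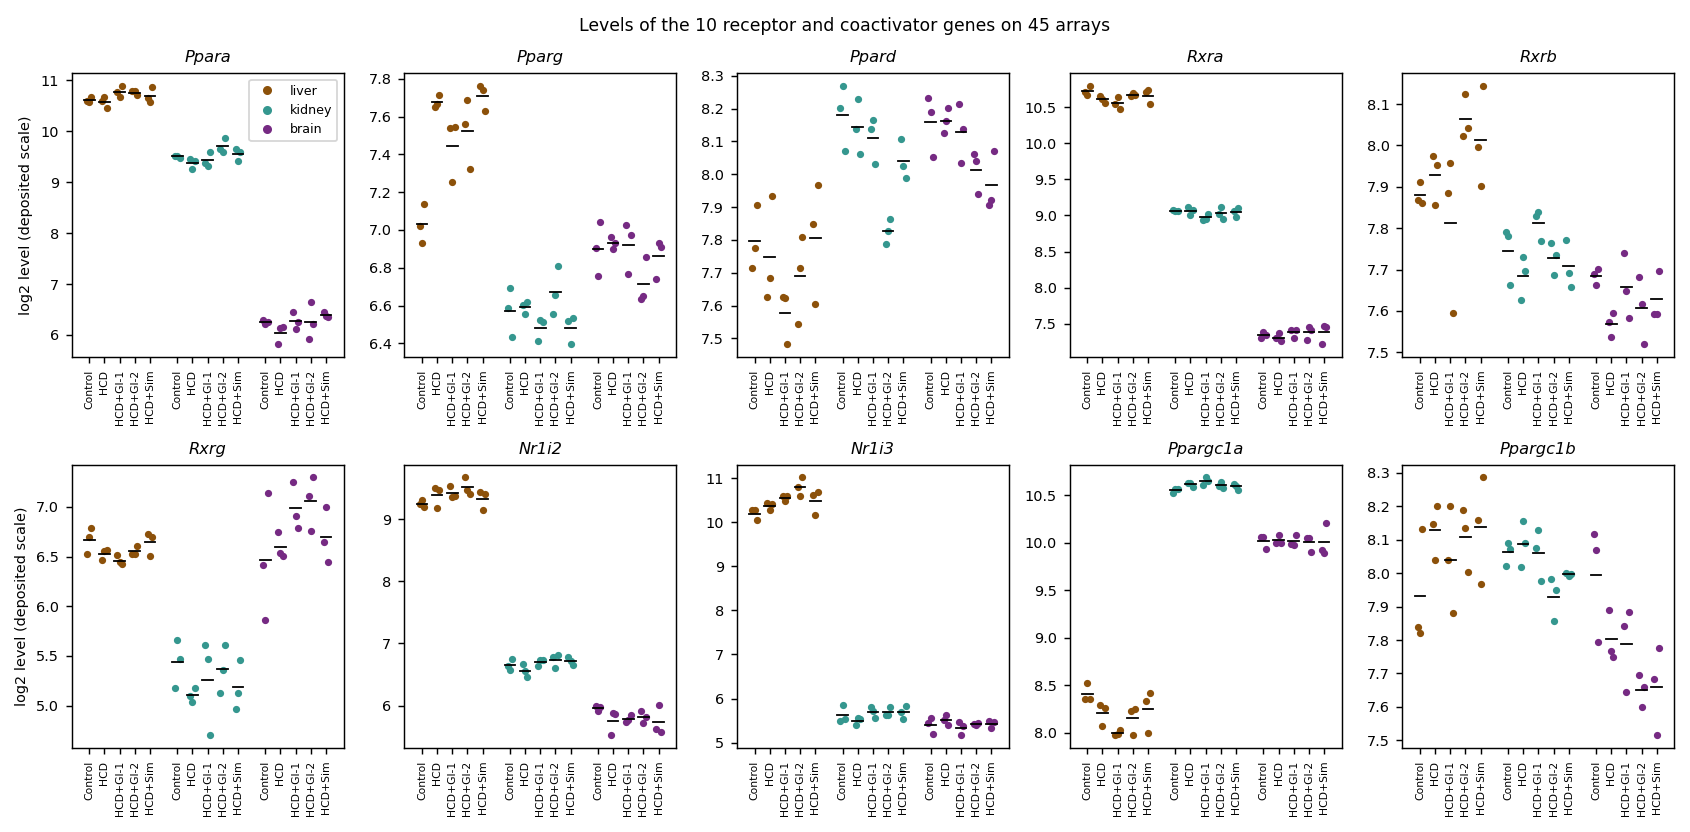
Deposited log2 level (vertical axes, 1 scale per gene) of each of the 10 genes in 15 tissue and diet groups, with 3 arrays per group as points and the mean as a bar. Ppara, Rxra, Nr1i2 and Nr1i3 are highest in liver and Ppargc1a lowest there, and within liver Pparg is low in the Control arrays (6.93 to 7.14) and higher in the other groups.

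The first diet question was what cholesterol feeding did to the receptors themselves. In liver, Pparg (chr6:115360879-115490404) rose and was the only gene called among the 10, where 1.34% of all genes were called. Pparg lay at 7.02, 6.93 and 7.14 (log2) on the Control arrays and at 7.65, 7.66 and 7.71 on the HCD arrays. The groups did not overlap, as for 14.9% of all genes, and the level was 1.57-fold higher (log2 fold change 0.65 ± 0.09 SE, 95% interval 0.46 to 0.83, adjusted p = 3.56e-05). The study's stricter rule, which also asks for a log2 change over 0.7 and which 0.245% of all genes met, was not reached. The call held in a fit on liver arrays alone (adjusted p = 0.0122) and with any of the 6 arrays left out (log2 fold change 0.60 to 0.70, highest adjusted p = 0.00108). In bulk tissue, more RNA per cell and more cells of a type that makes the RNA cannot be told apart. Markers of adipocytes, the cells best known for Pparg, averaged 6.82 to 6.99 in Control and 6.79 to 6.85 in HCD liver. Macrophage markers averaged 8.28 to 8.42 and 8.04 to 8.08, and neither list was higher in HCD. Of the 10 adipocyte markers, 8 were highest in liver among the tissues, so that list does not single out adipocytes in liver. Whether cell composition had a part in the Pparg rise was not tested.

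In kidney and brain the same diet left Pparg at log2 differences of 0.02 and 0.03. The difference between tissues was itself tested: the response in liver exceeded that in kidney by 0.63 on the log2 scale (adjusted p = 0.0188, a test that called 0.263% of all genes) and that in brain by 0.62 (adjusted p = 0.0184, 0.326% of all genes). These were the only 2 called of 120 such differences over the 10 genes, the 4 diet contrasts and the 3 tissue pairs. Leaving out liver Control array B ended both calls (adjusted p = 0.0758 and 0.0837). The kidney difference was also lost without kidney HCD array B or kidney Control array B (0.0594 and 0.0903), and the brain difference without brain HCD array B or brain Control array A (0.0568 and 0.0501), on liver and brain arrays alone (0.0831) and on the 4 groups alone (0.0777).

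The other 9 genes were not called in HCD liver, and their log2 differences were at most 0.21 in size. Ppara, whose targets are described below, lay at 10.59, 10.57 and 10.66 in Control and 10.59, 10.67 and 10.45 in HCD liver. The ranges overlapped, and the interval of the difference, -0.27 to 0.19, still allows changes of that size. Nr1i2 and Nr1i3 were 0.13 and 0.18 higher in HCD, adjusted p = 0.744 and 0.681. Ppargc1a was 0.21 lower without overlap, as for 14.9% of all genes (8.36, 8.52 and 8.35 in Control, 8.29, 8.07 and 8.26 in HCD, adjusted p = 0.333).

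The second question was what the extracts and simvastatin changed in mice already on the HCD. These 3 contrasts share the same 3 HCD arrays, so they are not independent of each other. None of the 10 genes was called in HCD+Gl-1 liver, where 2.48% of all genes were called, with 2 of the 10 at an unadjusted p under 0.05 (16.6% of all genes). Nr1i3 alone was called in HCD+Gl-2 liver, where 1.7% of all genes were. No gene of the set was called in HCD+Sim liver, where 1.1% of all genes were, and none had an unadjusted p under 0.05 there (11.7% of all genes).

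Pparg stayed above its Control level in all 3 treated groups. It lay at 7.54, 7.25 and 7.55 with Gl-1, at 7.56, 7.69 and 7.32 with Gl-2 and at 7.76, 7.74 and 7.63 with simvastatin. Every one of these 9 arrays lay above the 3 Control arrays. The treated groups were not tested against Control, and the share of all genes separated in this way was not computed. Against HCD the differences were -0.23 (adjusted p = 0.179), -0.15 (adjusted p = 0.53) and 0.03 on the log2 scale, none called.

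Nr1i3 (chr1:171213934-171218845) rose with Gl-2. CAR, which it encodes, controls Cyp2b10. Nr1i3 lay at 10.44, 10.27 and 10.41 in HCD and at 10.81, 10.59 and 11.02 in HCD+Gl-2 liver. The groups did not overlap, as for 15.2% of all genes, and the level was 1.35-fold higher (log2 fold change 0.43 ± 0.12 SE, 95% interval 0.20 to 0.67, adjusted p = 0.0431). The call depended on the arrays and on the estimate of spread. It was lost in the fit on liver arrays alone (adjusted p = 0.251), with pools A and B only (0.253), and in 5 of 6 fits that left out an array (all but Gl-2 array B, adjusted p up to 0.286). In HCD+Gl-1 liver Nr1i3 lay at 10.59, 10.48 and 10.59, with Gl-2 above Gl-1 by 0.25, which did not pass (adjusted p = 0.215). Ppargc1a, the main PGC-1 coactivator, lay at 7.97, 7.99 and 8.03 with Gl-1, below all HCD arrays, a log2 difference of -0.21 that was not called (adjusted p = 0.184). For Gl-1 against HCD, 14.7% of all genes had no overlap of arrays.

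**Figure D2:**
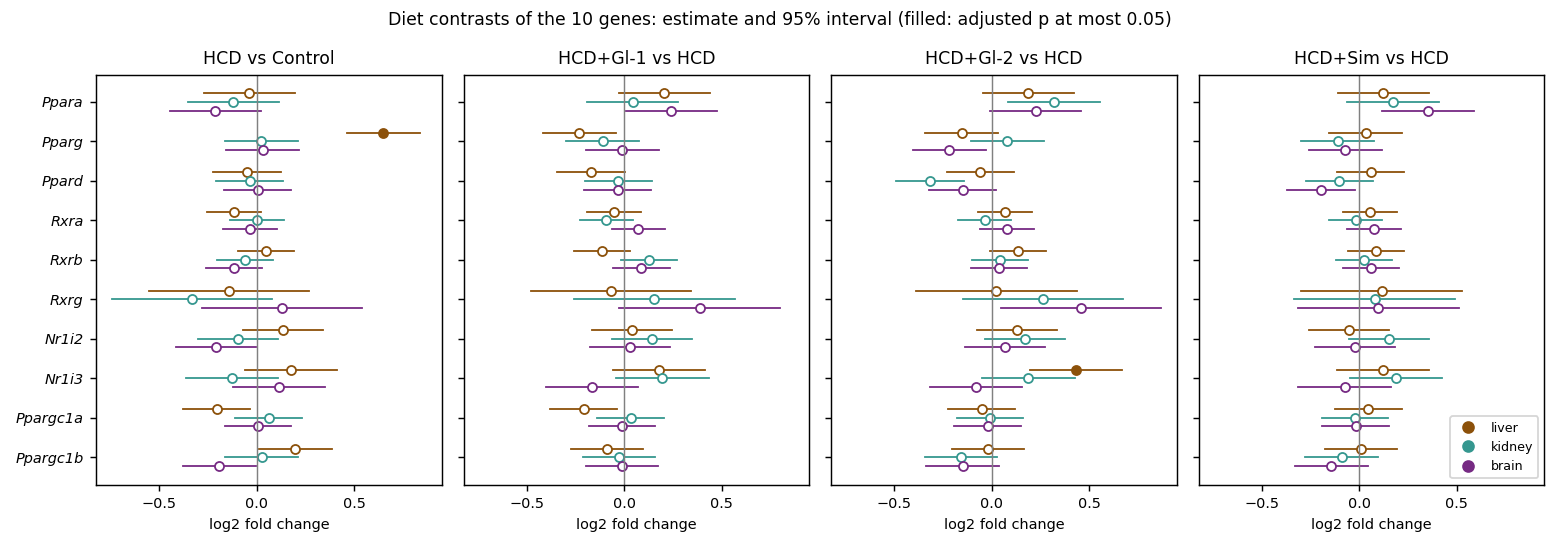
Log2 fold change (horizontal axes) of the 10 genes in 4 diet contrasts, with the 95% interval as a line, by tissue. Filled points passed the adjusted p of 0.05: Pparg in liver for HCD against Control (0.65) and Nr1i3 in liver for HCD+Gl-2 against HCD (0.43).

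Set against each other in liver, the treatments differed in 1 gene of the 10. Rxrb, an RXR present in most tissues, was called between the extracts, where 3.94% of all genes were. It lay at 7.89, 7.96 and 7.59 with Gl-1 and at 8.02, 8.13 and 8.04 with Gl-2. Array C of Gl-1 was the lowest of the 15 liver arrays, and the level with Gl-2 was 1.19-fold higher (log2 fold change 0.25 ± 0.07 SE, adjusted p = 0.037). Without that array the difference was 0.14 (adjusted p = 0.415), without Gl-1 array A or Gl-2 array B or C the adjusted p was 0.0557, 0.134 and 0.0761, and in the fit on liver arrays alone it was 0.312. No gene of the 10 was called between Gl-1 and simvastatin (4.09% of all genes called, 4 of the 10 and 21.3% of all genes at an unadjusted p under 0.05) or between Gl-2 and simvastatin (1.31% of all genes called, 2 of the 10 and 12.2% of all genes at that p). With the HCD+Sim arrays A and B left out, that arm held 1 array, assumed to vary like the other groups. Log2 differences of Gl-1 from that array included -0.39 for Ppard, -0.33 for Rxrb and -0.42 for Ppargc1a, and they describe that array. The comparison of the extracts with each other does not use it, so the Rxrb call there was unchanged.

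In kidney no member was called in any diet contrast, against 0.131% of all genes for HCD, 0.267% for Gl-1, 0.996% for Gl-2 and 0.222% for simvastatin. At an unadjusted p under 0.05 there were 2 of 10, both with Gl-2, where 8.97% of all genes were. Ppard, the widely expressed PPAR, lay at 8.14, 8.23 and 8.06 in HCD and at 7.79, 7.83 and 7.86 in HCD+Gl-2 kidney. The groups did not overlap, as for 20.4% of all genes, with a log2 difference of -0.32 ± 0.09 SE (adjusted p = 0.0587). It passed in 6 of the alternative fits, among them kidney arrays alone (adjusted p = 0.0199), and in none that left out an array (adjusted p from 0.0663). Ppara lay at 9.46, 9.27 and 9.42 in HCD and 9.65, 9.59 and 9.87 in HCD+Gl-2 kidney, a log2 difference of 0.32 (adjusted p = 0.27).

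In brain no member was called either, where all-gene shares were 0.0543% for HCD, 0.0181% for Gl-1, 0.0362% for Gl-2 and 0.0181% for simvastatin. Of the 10 genes, 2 had an unadjusted p under 0.05 for HCD, 1 for Gl-1, 2 for Gl-2 and 2 for simvastatin, beside 6.44%, 5.55%, 6.65% and 5.53% of all genes. The largest estimate was for Rxrg, an RXR of striatal neurons, at 6.75, 6.54 and 6.50 in HCD and 7.11, 6.76 and 7.30 in HCD+Gl-2 brain (log2 difference 0.46 ± 0.20 SE, adjusted p = 0.67). The Control arrays of Rxrg ran from 5.86 to 7.14, wider than any diet difference. Across the 15 brain arrays Rxrg moved with the mean of 11 striatal markers (Pearson's r = 0.93, Spearman's rho = 0.92, arrays of all 5 diets pooled). Control arrays A, B and C had marker means of 8.42, 7.80 and 9.37, and Rxrg at 6.41, 5.86 and 7.14 in the same order. The part of the dissected regions in the Rxrg estimates was not tested.

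**Figure D3:**
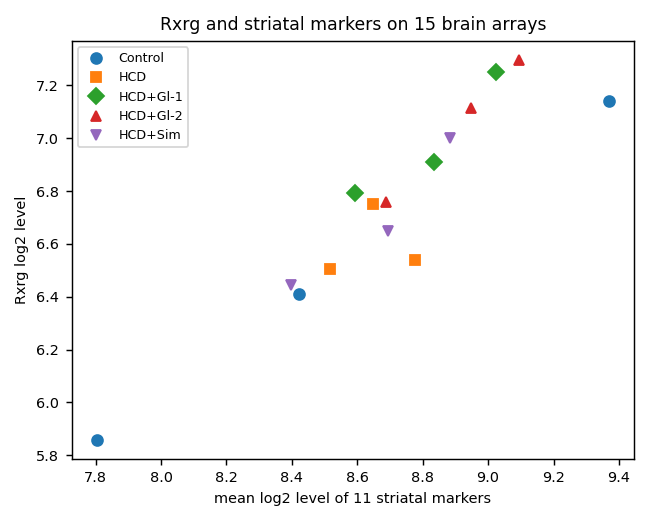
Rxrg log2 level (vertical axis) against the mean log2 level of 11 striatal markers (horizontal axis) on 15 brain arrays, with 1 symbol per diet. Control arrays B and C lie at the ends of the marker axis, at 7.80 and 9.37, with Rxrg at 5.86 and 7.14.

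Known targets of the receptors were then counted by list. The lists were chosen with earlier results of these data known, so their counts and directions describe the data and are not independent evidence. For comparison, the shares of all genes called in liver were 1.34% for HCD, 2.48% for Gl-1, 1.7% for Gl-2 and 1.1% for simvastatin. In kidney these shares were 0.131%, 0.267%, 0.996% and 0.222%, in the same order. The first list held 56 PPARα targets, of which 8 fell and 2 rose in HCD liver (median log2 change -0.17, against -0.01 over all genes). Cyp4a14, a fatty acid ω-hydroxylase, lay at 10.48, 10.47 and 10.29 in Control and at 9.38, 7.88 and 9.64 in HCD liver. All HCD arrays were lower, without overlap as for 14.9% of all genes, and the level fell 2.73-fold (log2 fold change -1.45 ± 0.33 SE, adjusted p = 0.0125). Cyp4a31 fell by 0.95 (adjusted p = 0.00721), Pdk4, which shuts glucose carbon out of mitochondria, fell by 0.78 (adjusted p = 0.00979), and Crot and Plin2 fell by 0.50 and 0.45. Those that rose were the fatty acid carrier Cd36, also known as a PPARγ target (0.64, adjusted p = 0.000232) and Aldh3a2 (0.44, adjusted p = 0.00226). Fabp1, the carrier whose promoter window is shown above, differed by 0.01 (adjusted p = 0.994).

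On the treated diets the calls ran mostly upward. With Gl-1, 7 PPARα targets rose and none fell, among them Pex11a (0.49), Eci2 (0.42), Plin2 (0.41), Decr1 (0.41) and Acsl1 (0.38). With Gl-2, 6 rose and Cd36 fell (-0.53, adjusted p = 0.00217), the rises led by Cyp4a14 (1.54, adjusted p = 0.0062), Cyp4a31 (0.99), Cyp4a10 (0.93) and Cyp4a32 (0.84). With simvastatin, 11 rose and none fell. Cyp4a14 lay at 11.53, 10.63 and 12.00 there, above all HCD arrays and above all Control arrays, 5.36-fold over HCD (log2 fold change 2.42, adjusted p = 2.96e-05). Between simvastatin and HCD 13.4% of all genes had no overlap, and simvastatin was not tested against Control. Array B was the lowest of the 3 for Cyp4a14 in each of the 4 groups given cholesterol. The Cyp4a genes are close paralogs, so their probe sets may share signal. Medians over the 56 were 0.19, 0.11 and 0.20 for the 3 treatments, against -0.01, 0.01 and 0.03 over all genes. Since the contrasts share the HCD arrays, a low HCD value enters all 4.

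These liver counts depend on the estimate of spread. The fit used all 45 arrays, and the median spread within groups was 0.138 in liver against 0.0986 in kidney and 0.111 in brain. In a fit on liver arrays alone, none of the 56 was called in any of the 4 contrasts. Leaving out Gl-1 array C brought the 7 to 0 and leaving out array B to 25, and leaving out HCD array B or Gl-2 array C brought the Gl-2 count from 7 to 1, and leaving out Gl-2 array B to 13. The HCD count fell from 10 to 5 without HCD array B or Control array B, and the simvastatin count from 11 to 4 without HCD+Sim array C. Without the HCD+Sim arrays A and B, whose muscle and pancreas markers were high, 12 were called with simvastatin, from the 1 array left, assumed to vary like the other groups. In the simvastatin group Pdk4 lay at 7.18 and 7.29 on those 2 arrays and at 6.39 on array C.

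In kidney, where smaller shares of all genes were called than in liver, PPARα targets were called in each of the 4 contrasts, and the difference between the tissues' counts was not tested. With HCD 3 fell and none rose, among them Angptl4, an inhibitor of lipoprotein lipase (-0.76, adjusted p = 0.00341), and Acaa2, an enzyme of fatty acid oxidation (-0.35, adjusted p = 0.0158). Pdk4 lay at 7.82, 7.71 and 8.04 in HCD kidney and rose with each treatment, 2.14-fold with Gl-1 (adjusted p = 0.00015), 1.64-fold with Gl-2 (adjusted p = 0.0253) and 1.94-fold with simvastatin (adjusted p = 0.0018). All arrays of the 3 treated groups lay above the HCD arrays. In these contrasts 13.8%, 20.4% and 16.7% of all genes had no overlap, in the same order. The 3 contrasts share the HCD arrays, so they are not independent of each other. With Gl-1, Angptl4 (0.61, adjusted p = 0.0228), Acaa1b (0.50, adjusted p = 0.0397) and Acaa2 (0.30, adjusted p = 0.0405) rose too. In all, 5 rose with Gl-1, 3 rose with Gl-2 while Cyp4a12a fell (-0.84, adjusted p = 0.000171), and 2 rose with simvastatin. On kidney arrays alone the counts were 1, 4, 7 and 1 in the order HCD, Gl-1, Gl-2 and simvastatin. Leaving out single kidney arrays gave 2 calls for HCD (3 without HCD array A), 2 or 3 for Gl-1 whichever array was left out, 2 to 7 for Gl-2 (2 without array C, 7 without array B) and 2 for simvastatin. No PPARα target was called in brain.

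**Figure D4:**
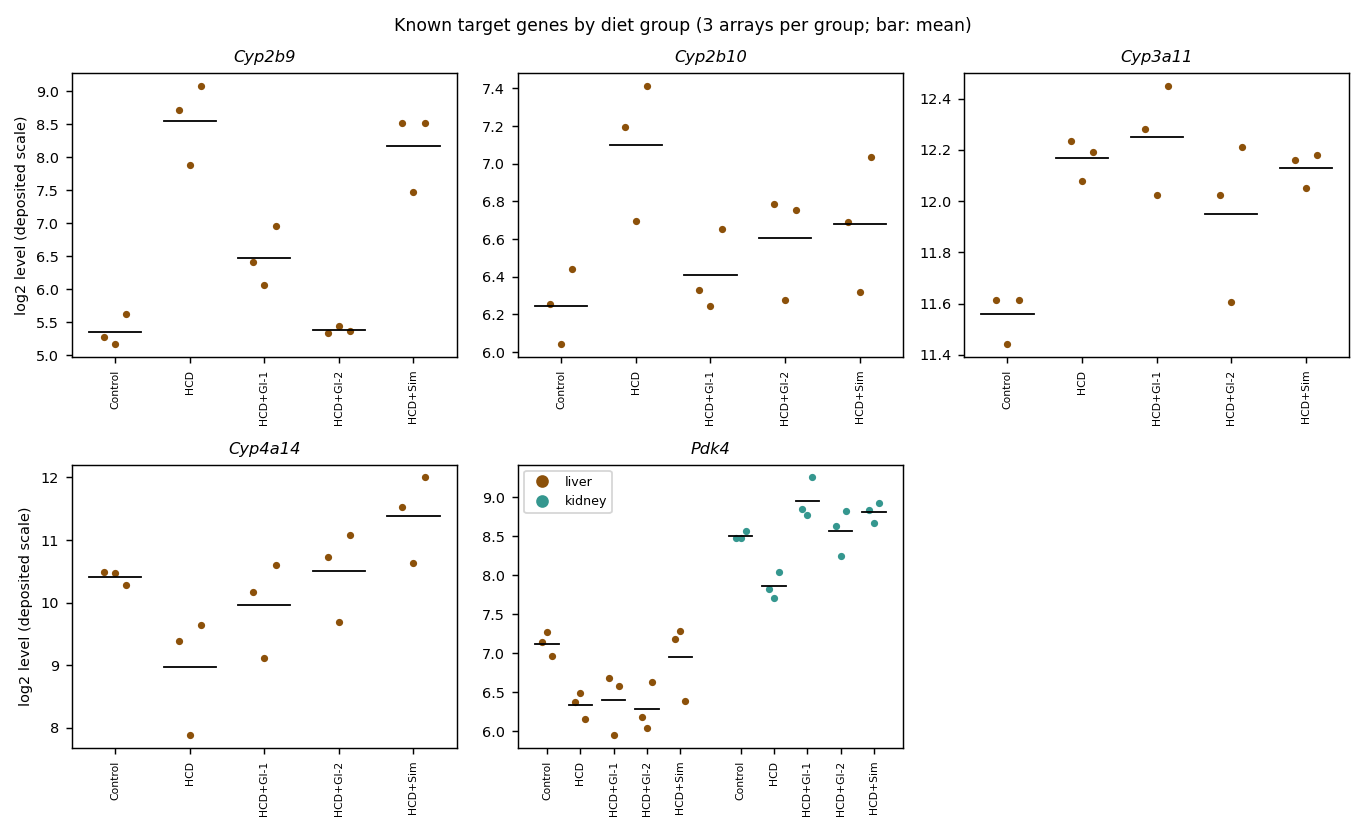
Deposited log2 level (vertical axes, 1 scale per gene) of 5 target genes by diet group, with 3 arrays as points and the mean as a bar, in liver or in liver and kidney. Cyp2b9 lies at 7.88 to 9.08 on the HCD liver arrays and at 5.34 to 5.45 with Gl-2, and kidney Pdk4 lies lowest in HCD (7.71 to 8.04).

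The PPARγ list held 28 targets of lipid storage. In HCD liver 4 rose and none fell, where 1.34% of all genes were called (median log2 change 0.00, and -0.01 over all genes). Fitm1, a protein of lipid droplet formation, lay at 9.95, 9.87 and 9.94 in Control and at 10.68, 10.62 and 10.69 in HCD liver. It rose 1.67-fold (log2 fold change 0.74 ± 0.09 SE, adjusted p = 1.78e-06). Lpl, lipoprotein lipase, rose by 0.59 (adjusted p = 0.00112), Slc2a4, the insulin-responsive glucose transporter, by 0.53 (adjusted p = 0.00695) and Mogat1, an enzyme of triglyceride synthesis, by 0.52 (adjusted p = 0.0427). Cidec, a droplet protein, did not move with them (-0.05, adjusted p = 0.936). With Gl-1, Fitm1, Slc2a4 and Cyp4b1 fell (-0.55, -0.53 and -0.33). With Gl-2, Fitm1 and Slc2a4 fell (-0.56 and -0.50) along with Agpat2 (-0.29), and the lipase Pnpla2 rose (0.43). With simvastatin none of the 28 was called. On liver arrays alone the counts were 2 for HCD, 1 for each extract and 0 for simvastatin. Single arrays mattered too: 2 were called for HCD without HCD array C, 1 for Gl-1 without Gl-1 array A but 5 without its array B, and 1 for Gl-2 without HCD array B or Gl-2 array C. In kidney Pck1 rose with Gl-2 (0.64, adjusted p = 0.000379), and in brain Fitm1 rose with HCD (0.55, adjusted p = 0.00196), a call lost without HCD array A.

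Of 60 listed PXR and CAR targets 53 were measured. In HCD liver 15 rose and none fell, where 1.34% of all genes were called. The median log2 change was 0.28, against -0.01 over all genes, and 3 were called on liver arrays alone. Cyp2b9, a cytochrome P450 of the Cyp2b family counted in this list, lay at 5.28, 5.17 and 5.62 in Control and at 8.71, 7.88 and 9.08 in HCD liver. It rose 9.19-fold (log2 fold change 3.20 ± 0.21 SE, adjusted p = 4.72e-13). That fold may be understated because pituitary markers, foreign to liver, lay at 5.38 to 5.67 there. Cyp3a44 rose by 1.21, the bile acid exporter Abcc3 by 1.07 (adjusted p = 4.73e-12), Cyp2b10, the usual marker of CAR activity, by 0.86 (adjusted p = 0.000704), Cyp2c38 by 0.79 and Cyp3a11, the usual marker of PXR activity, by 0.61 (adjusted p = 0.00276). The glutathione transferases Gstm3 and Gstm4 rose by 0.49 and 0.52.

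With the extracts part of the list moved back. Cyp2b9 lay at 6.41, 6.07 and 6.96 with Gl-1 and at 5.34, 5.45 and 5.37 with Gl-2, the latter within the Control range. It fell 4.22-fold with Gl-1 (adjusted p = 1.84e-07) and 9-fold with Gl-2 (adjusted p = 6.39e-13), the latter again down to the level of foreign markers, so that a larger fall could not be seen. Cyp2b10 fell with Gl-1 (-0.69, adjusted p = 0.00726) and lay lower with Gl-2 (-0.50) without passing the test (adjusted p = 0.0885). In all, 9 of 53 fell and 2 rose with Gl-1 (2.48% of all genes called), and 7 fell and 4 rose with Gl-2 (1.7% of all genes called). Cyp2c38, Gstm3, Gstm4, Gstt1 and Gstt3 fell with each extract, and Alas1, the rate-limiting enzyme of heme synthesis, and Sult5a1 rose with each. Por, the electron donor of P450 enzymes, rose with Gl-2 (0.54, adjusted p = 0.00154), as did Tsku (0.41). Not all moved back: Abcc3 fell by 0.36 with Gl-1 (adjusted p = 0.00778) and stayed at 10.34 to 10.51, above the Control arrays at 9.67 to 9.74, and Cyp3a11 differed from HCD by 0.08 with Gl-1 and -0.22 with Gl-2 (adjusted p = 0.803 and 0.464). With simvastatin no PXR or CAR target was called, and Cyp2b9 lay at 8.53, 7.47 and 8.52, with arrays A and C inside the HCD range and array B below it. Without the HCD+Sim arrays A and B, 6 were called there from the 1 array left, with its spread taken from the other groups. Cyp2b, Cyp2c, Cyp3a and Gstm genes are paralogs with similar sequence, so their probe sets may share signal.

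On liver arrays alone, 3, 2, 2 and 0 PXR and CAR targets were called for HCD, Gl-1, Gl-2 and simvastatin. Leaving out HCD array A brought the HCD count from 15 to 8, and leaving out Gl-1 array C or Gl-2 array C brought each extract count from 11 to 6. In kidney the list gave 1 call, Alas1 with Gl-2 (0.49, adjusted p = 0.000351), and in brain none. The 15 targets rose in livers where Nr1i2 and Nr1i3 themselves were not called, and Cyp2b9 fell with Gl-2 in the group where Nr1i3 was highest. Whether the levels of receptors and targets are linked was not tested.

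**Figure D5:**
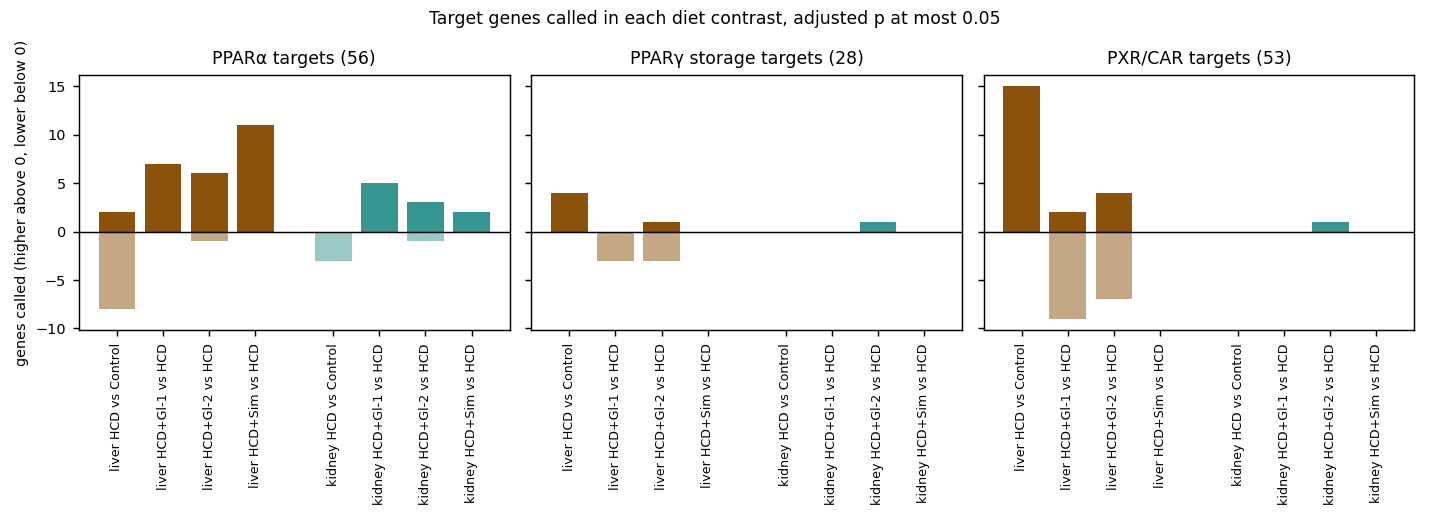
Number of genes called (vertical axis, higher above 0 and lower below 0) in each of 4 diet contrasts of liver and kidney for 3 target lists, from the fit on all 45 arrays. PXR and CAR targets show 15 rises in HCD liver and 9 and 7 falls with Gl-1 and Gl-2, and none in either direction with simvastatin.

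Few genes were called among partners and coregulators. Of 12 other receptors that pair with RXR or act beside it, none was called in HCD liver, and Nr4a1 and Nr4a2, immediate early receptors, were called with Gl-2. Nr4a1 lay at 6.94, 6.98 and 6.81 in HCD and at 10.47, 10.05 and 10.62 in HCD+Gl-2 kidney, an 11.1-fold rise (adjusted p = 2.36e-11). Nr4a2 rose 2.71-fold there (adjusted p = 2.04e-12). In HCD+Gl-2 liver Nr4a1 rose 2.3-fold (adjusted p = 0.0123), with arrays A and C at 8.69 and 9.20 but array B at 6.97, below the HCD arrays at 7.01 to 7.15. The liver call was lost without HCD array C or Gl-2 array A or C.

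Of 27 measured PGC-1 partners and targets, none was called in HCD liver, Gabpa and Idh3a rose with Gl-1 (0.33 and 0.42, with overlapping arrays), and Lpin1, a coactivator of PPARα and an enzyme of triglyceride synthesis, fell with simvastatin (-0.87, adjusted p = 0.00775), a call absent on liver arrays alone and on the compared groups alone. The Gl-1 calls were lost in 4 of the fits that left out an array (HCD array B or C, Gl-1 array A or C) and numbered 7 without Gl-1 array B. In kidney Ucp2 fell with HCD (-0.56, adjusted p = 0.0419, with no call left when any array but Control array C was left out) and Pck1 rose with Gl-2. Esrra, the receptor most dependent on PGC-1, was not called in liver or kidney, with log2 differences from -0.08 to 0.22. Of 18 coregulators, Tbl1x rose in HCD liver (0.27, adjusted p = 0.00393), not called on liver arrays alone. Nr0b2, a repressor of these receptors, differed from HCD by -0.50 with Gl-2 (9.32, 9.23 and 9.18 in HCD, 8.91, 9.23 and 8.07 with Gl-2, adjusted p = 0.164).

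Genes whose levels ran most like those of the called receptors were picked over the 15 liver arrays. For Pparg these were Abcg5, a sterol exporter (r = 0.93), Acsm5 (0.88) and Lpl (0.88). For Nr1i3 they were Ndel1 (0.92), Bnip3 (0.90) and Por (0.89). Over the 15 group means, which mostly reflect tissue, the closest genes were Chac1 for Pparg (0.98) and Serpina6 for Nr1i3 (0.9989). These correlations pool the 5 diets and are a description of shared pattern only.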

How the data were processed

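Total RNA of liver, kidney and brain was hybridized to Affymetrix mouse gene arrays, and the authors deposited log2 values after RMA background correction, quantile normalization, ComBat batch adjustment and selection of 1 probe set per gene by the widest interquartile range. The batches given to ComBat are not stated in the sources used here, and an adjustment made before deposit can make spread between arrays smaller. Both the array and 3 samples per group limit the precision, and an exact permutation test of 3 against 3 cannot go below p = 0.1. The values were analysed as deposited. Groups came from the sample labels. A model with a mean for each of the 15 groups was fitted to all 45 arrays and 22080 genes with limma 3.58.1 in R 4.3.3 (lmFit and eBayes, prior df 7.34, residual df 30), and p-values were adjusted by Benjamini-Hochberg within each contrast. A gene was called at an adjusted p of at most 0.05, and the methods' rule also asks for an absolute log2 fold change over 0.7. The same fit was run on simulated arrays, drawn independently with 1 spread per gene for all tissues. That setting had no mixed pool and no larger spread in liver, so it cannot speak for the liver calls. The receptors and the target and marker lists were chosen with earlier results of these data known. From each list were named up to 5 called genes in each direction with the largest change and no overlap of arrays, plus Cyp4a14, Cyp3a11, Cyp2b10, Cidec, Esrra and Nr0b2. Fabp1, Gabpa, Idh3a and other list genes outside that rule were named after their values were seen. Deviations of pools with the same letter correlated at more than 0.1 in every pair only for HCD+Gl-2 against HCD+Gl-1 and against HCD+Sim, where the pool letter as a block left Rxrb called (adjusted p = 0.0479). Alternatives changed the arrays in the fit, pool C, the block, a filter on dim genes, the normalization, the moderation and the threshold. Gene names are those of the deposited table, in which 13 had turned into dates. Promoter windows came from RefSeq (GRCm38.p6). A gene counted in the PPARα target list is not reported by name here.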

Additional observations from a re-analysis of the deposited data

Results flagged for a closer look

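The response of Pparg to the HCD differed between tissues. The log2 fold change of HCD against Control in liver exceeded that in kidney by 0.6254 (SE 0.1305, limma with Benjamini-Hochberg, adjusted p = 0.0188) and that in brain by 0.6166 (SE 0.1305, adjusted p = 0.0184). All 3 liver HCD arrays lay above all 3 liver Control arrays, and 14.9% of all genes had no overlap between these groups. Leaving out liver Control array B gave adjusted p = 0.0758 against kidney and 0.0837 against brain. Leaving out kidney HCD array B or kidney Control array B gave 0.0594 and 0.0903 for the former, and leaving out brain HCD array B or brain Control array A gave 0.0568 and 0.0501 for the latter.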

How the results depend on the processing

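Over 180 pairs of a receptor and a contrast and their alternatives, 2503 of 2550 values kept their side of the threshold, 26 lost a call, 21 gained one and none reversed a call, while 124 uncalled values changed sign. Receptors called in the liver diet contrasts, 2 in all, numbered 1 in fits on liver arrays, on the compared groups or on pools A and B, and 0 under the fold rule. In kidney, 0 became 1 (Ppard with Gl-2) with kidney arrays alone, pools A and B, the replicate block, the filter on dim genes, repeated quantile normalization or trended robust moderation. Between liver treatments, 1 became 0 with liver arrays, the compared groups, pools A and B or the fold rule, and 2 with the dim filter. Leaving out the HCD+Sim arrays A and B, an alternative chosen after seeing the data, leaves 1 array in that arm, assumed to vary like the other groups. The 2550 values and the 21 gained calls above include that alternative, and the other receptor counts here leave it out. The Rxrb call between the extracts does not use the simvastatin arrays. The 88 list calls in liver became 11 on liver arrays, 8 on the compared groups, 52 on pools A and B and 24 under the fold rule. The 19 in kidney became 11 under the fold rule. The 1 in brain became 0 on brain arrays, the compared groups or the fold rule, 12 on pools A and B, and 2 with the replicate block, repeated quantile normalization or trended robust moderation. The Pparg differences of 0.6254 and 0.6166 between tissues did not reach the fold rule, and the latter was lost on liver and brain arrays alone (adjusted p = 0.0831) and on the 4 groups alone (0.0777). The cause of these changes was not tested. Leaving out single arrays gave 1 to 2 receptors called in liver, 0 in kidney, 0 in brain, 0 to 3 between liver treatments and 21 to 22 between tissues, against 21 in the fit on all arrays. It gave 56 to 116 list calls in liver, 13 to 22 in kidney and 1 to 11 in brain (11 without brain Control array C), and Pparg differences of 0.5658 to 0.6933 and 0.5454 to 0.6882. With the pool letter as a replicate block, 2 receptors were called in the liver diet contrasts, 1 in kidney, 0 in brain, 1 between liver treatments and 22 between tissues.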

Other observations

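Pool C, described as a mix of pools A and B, lay between them in 9 of 50 combinations of receptor and diet in liver, 14 of 50 in kidney and 17 of 50 in brain. In liver the median distance of pool C from the level computed for an equal mix of A and B (their linear mean) came to 0.135 on the log2 scale, beside a median difference of 0.0939 between A and B. The same pair of values came to 0.0744 and 0.0807 for kidney, and to 0.105 and 0.102 for brain.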
